A study of Mus musculus with 8 samples.

Results

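The 10 genes described here encode parts of the adherens and tight junctions that join neighbouring keratinocytes. They are the cadherins Cdh1 and Cdh3, the catenins Ctnna1, Ctnnb1 and Ctnnd1, the linker Lmo7, the scaffold Tjp1, and the tight junction membrane proteins Cldn1, Cldn4 and Ocln. The genes were chosen by symbol, and all 10 had a row among the 23861 genes measured in hair follicle stem cells (HFSCs) and among the 16231 genes measured in epidermal stem cells (EpdSCs).

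The study asked what the homeobox transcription factor Msx2 does in the stem cells of the mouse hair follicle and epidermis. Bulk RNA-seq was made of cells sorted from the dorsal skin of mice in telogen, the resting phase of the hair cycle. Each of the 4 groups held 2 libraries, 8 in all. WT HFSCs came from mice 2 months old, whereas Msx2-KO HFSCs, WT EpdSCs and Msx2-KO EpdSCs came from mice 6 months old, so that genotype and age cannot be told apart in HFSCs. WT mice were C57BL/6J animals matched for hair cycle stage. The Msx2-KO mice were described as homozygous for an allele in which a neo cassette stands upstream of exon 2, and no Cre is named, whereas the deposited tables call the mutant cKO, a name usually kept for conditional alleles. The paper describes germline transmission of the allele and intercrosses of heterozygotes, and leaves knockouts limited to the follicle epithelium to future work. The name cKO is not explained. HFSCs were taken as CD34+ CD49f+ Sca-1- cells and EpdSCs as CD34- CD49f+ Sca-1+ cells. The labels do not say whether the libraries of a group came from separate animals, so the p-values measure the spread between these libraries, which may be technical.

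Adherens junctions are built on classical cadherins, which bind the same cadherin on the next cell and hold catenins on their cytoplasmic tail. β-catenin joins the cadherin to α-catenin, which binds actin, and p120-catenin keeps the cadherin at the membrane. Tight junctions lie above them, where claudins and occludin seal the space between cells and are anchored by ZO proteins; in skin the functional tight junction barrier is in the granular layer, above the basal cells that were sorted here.

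The libraries held 3132970 to 11016700 estimated counts in HFSCs and 15213700 to 21092700 counts in EpdSCs. The 10 junction genes together took 186 to 281 of every 100000 counts on nuclear protein-coding genes in HFSCs and 207 to 305 in EpdSCs. Msx2 had 53 and 7 counts in WT HFSCs and 40 and 18 counts in HFSCs labelled Msx2-KO, and its deposited normalized counts in EpdSCs were 58.5 and 85.4 in WT against 150.3 and 22.2 in Msx2-KO. The groups overlapped in both cell types, so the counts of Msx2 do not check the genotype, and the mutant libraries are called here by their label. The labelled HFSCs held Krt15 at 28679 and 27128.5 normalized counts in WT against 13530.3 and 16881.6 in Msx2-KO. Their Cd34 was at 2996 and 2663 against 1081 and 876.7 (log2 fold change -1.53). The labelled EpdSCs held Krt14 at 71869 and 84155 in WT against 392157 and 275191 in Msx2-KO. Their Ly6a, which encodes Sca-1, was at 472 and 544 against 826 and 3493. Each of these markers therefore differed between the genotype labels. Ly6a had no row among the HFSC genes measured, and Cd34 had none among the EpdSC genes. Fewer genes had a count in the HFSC libraries labelled Msx2-KO (11409 and 14251) than in the WT ones (22447 and 19595). The mitochondrial ribosomal RNA genes mt-Rnr1 and mt-Rnr2 took 0.073% of the counts in Msx2-KO EpdSC replicate 1. They took 6.18% to 23.5% in the other EpdSC libraries. In HFSCs they took 8.94% and 36.3% in WT against 49.4% and 53.2% in Msx2-KO, so that this share was higher in both libraries labelled Msx2-KO. The fits described below without mitochondrial or ribosomal RNA genes left out a wider set of genes. The library numbers in the labels run on from the WT EpdSCs to the Msx2-KO HFSCs, while WT HFSCs and Msx2-KO EpdSCs carry numbers from other ranges, so that in each cell type genotype and number range cannot be told apart.

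Markers of other cells moved with the genotype labels. In HFSCs labelled Msx2-KO, 9 of 11 tested suprabasal markers lay above both WT libraries (summed normalized counts 7672 to 21924 against 3146 to 3248), as did 8 of 8 sebaceous markers (6668 to 8097 against 454 to 556) and 6 of 7 cycling markers (2527 to 3811 against 293 to 361). Of the HFSC markers, 8 of 10 lay below WT (35730.3 to 36097 against 57582 to 58527). The basal markers summed to 29851 to 31059 against 48334 to 48863, with 4 of 7 below WT and 2 above. Fibroblast markers held 292 and 706 against 797 and 972. The endothelial and pericyte markers summed to 1056 and 822 against 2193 and 2139.9, nearly all of it Cspg4, at 1019 and 798 against 2118 and 2106. The immune markers had summed values of 123 and 63.5 against 69.2 and 31.6. Cd74 made all of it in Msx2-KO, with 123 and 63.5 against 28.5 and 9.86, while Ptprc, Cd3g, H2-Aa and Lyz2 were at 0 in both Msx2-KO libraries and Trdc at 0 in every HFSC library. Melanocyte markers summed to 459 and 90.6 against 109.95 and 191, with Pmel, Tyrp1 and Kit at 0 in both Msx2-KO libraries. Dct (298 and 88.1 against 64.3 and 124) and Sox10 (161 and 2.59 against 9.77 and 1.97) made all of the mutant sum. Their groups overlapped. In EpdSCs labelled Msx2-KO, 9 of 12 suprabasal markers lay below WT (83692 to 108873 against 227724 to 315211) and the basal markers summed to 593472 to 1085360 against 251188 to 297664. Of the 8 basal markers 5 lay above WT, among them Ly6d (412209 and 60944 against 4483 and 3154). Itgb4 lay below (183 and 1148 against 7432 and 11067), and 2 overlapped. Immune markers summed to 2.55 and 4.04 in EpdSCs labelled Msx2-KO and to 804 and 57.9 in WT. The 2 endothelial and pericyte markers in the table summed to 29.3 and 139.5 against 524 and 834. Cspg4 had 5.09 and 121 against 516 and 829, and Pecam1 had 24.2 and 18.2 against 8.67 and 4.74. Sparc, the single fibroblast marker in that table, had 5439 and 2782 against 566 and 476, and Cd74 was at 0 in Msx2-KO replicate 1. The HFSC markers, a list that shares Krt14, Krt5 and Itga6 with the basal one, summed to 832939 and 620496 against 260000 and 308606. Of the 9 in the table, Krt15, Lgr5 and these shared genes lay above WT. The other 4, Lhx2, Sox9, Nfatc1 and Tcf3, overlapped. The cycling markers summed to 8312 and 3212 against 3789 and 3088, with 5 of 7 above WT. Mki67 lay below WT (7.64 and 294 against 2517 and 2055), and Top2a overlapped. The 4 sebaceous markers in the table summed to 25044 and 10837 against 6752 and 7233. Of these, 1 was higher in both mutant libraries, Scd1 (23465 and 9990.03 against 3585 and 4465), and 2 were lower, Fasn (1571 and 768 against 2926 and 2632) and Plin2 (7.64 and 78.9 against 218.8 and 136). None of the 6 melanocyte markers had a row among the EpdSC genes measured. The part of these cells, and of the mitochondrial ribosomal RNA share, in the junction gene values was not tested. Since the RNA was bulk, fewer cells of a type and less RNA per cell cannot be told apart.

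To compare genes with each other, values were divided by the length of all exons of the gene, and each gene was expressed as a share of the summed value of the 10 genes in the same library, a measure that does not depend on library scaling. Cdh1, the E-cadherin gene, made the largest share in all 8 libraries except Msx2-KO EpdSC replicate 2, where Cldn1 was higher. Its share was 27.5% ± 3.81 (SD, n = 2) in WT HFSCs and 39.9% ± 0.715 in WT EpdSCs. Ctnna1 followed with 18.8% ± 0.0126 in WT HFSCs and 15.2% ± 0.0800 in WT EpdSCs, then Ctnnb1 with 16.7% ± 2.15 and 13.5% ± 0.574. In WT HFSCs the shares of Cdh3 (8.37% ± 0.193), Lmo7 (8.25% ± 0.714) and Ctnnd1 (7.78% ± 0.0600) lay within 1 SD of a neighbour, so their order is not resolved. Cldn1 (5.99% ± 1.09) and Tjp1 (5.10% ± 0.372) came next, also within 1 SD of each other, followed by Ocln (1.42% ± 0.00534) and Cldn4 (0.0966% ± 0.0135). Ctnna1 and Ctnnb1 likewise lay within 1 SD of each other in WT HFSCs. In WT EpdSCs Cldn1 (9.71% ± 0.506) stood above Ctnnd1 (7.29% ± 0.312), Cdh3 (5.67% ± 1.53) and Tjp1 (4.38% ± 0.650), and Ocln (1.76% ± 0.224), Lmo7 (1.34% ± 0.233) and Cldn4 (1.31% ± 0.323) came last. Cdh3 lay within 1 SD of Tjp1 there, and Lmo7 within 1 SD of Cldn4. The tables of the cell types were normalized separately, and no test was made across them.

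**Figure D1:**
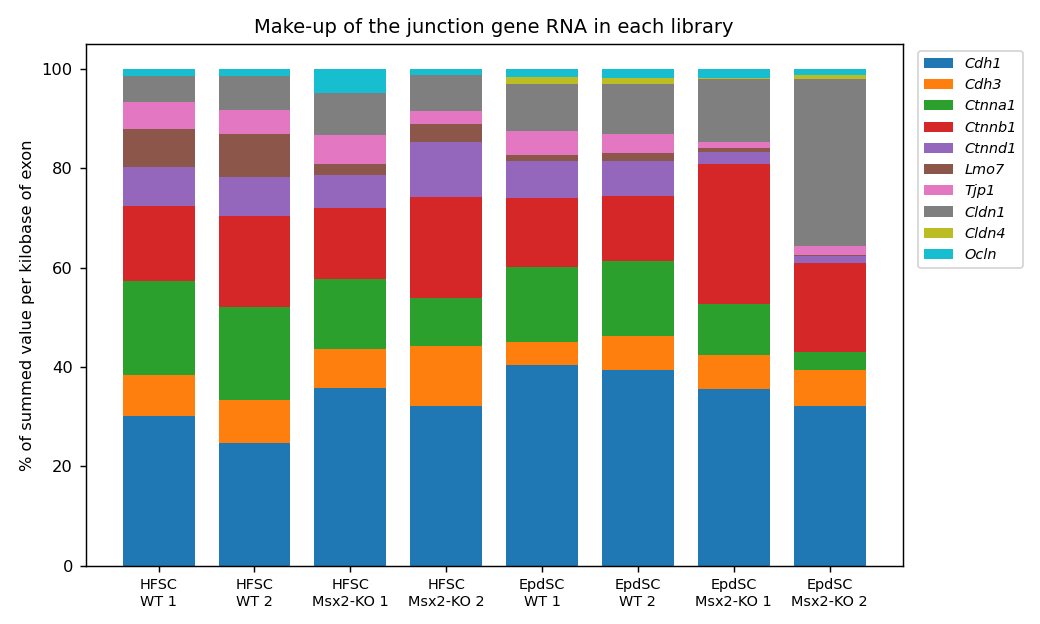
Stacked bars of the share (%) of each junction gene in the summed value per kilobase of exon over the 10 genes, for each of the 8 libraries. The Lmo7 band shrinks from 7.75% and 8.76% in the WT HFSC libraries to 2.28% and 3.5% in those labelled Msx2-KO, and the Cldn1 band reaches 33.7% in Msx2-KO EpdSC replicate 2.

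Set among the 11614 protein-coding genes tested in HFSCs, the WT level per kilobase of Cdh1 stood at percentile 98.6, Ctnna1 at 97.7 and Ctnnb1 at 97.3, while Ocln stood at 47.3 and Cldn4 at 2.77. Among the 11857 coding genes of the EpdSC table Cdh1 stood at percentile 99.0 and Cldn4 at 50.4. Of the 10 genes, Cldn4 differed most in WT rank between the cell types, followed by Lmo7, at percentile 92.8 in HFSCs and 51.6 in EpdSCs.

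In HFSCs, edgeR's quasi-likelihood test called 0 of the 9 junction genes with enough counts to be tested, where called means a Benjamini-Hochberg adjusted p under 0.05 and a fold change over 2. It also called 0% of all 14422 genes tested. At an unadjusted p under 0.05, 1 junction gene, Lmo7, was lower, against 12.8% of all genes lower and 5.3% higher. DESeq2 and limma-trend each called Lmo7 alone among the 10, with 5.78% and 9.76% of all genes called. In 5 of the 9 genes the Msx2-KO pair lay wholly below the WT pair, and in 0 wholly above, beside 33.5% and 17.5% of all genes. The median log2 fold change of the 9 genes was -0.23, and that of all genes was -0.14.

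**Figure D2:**
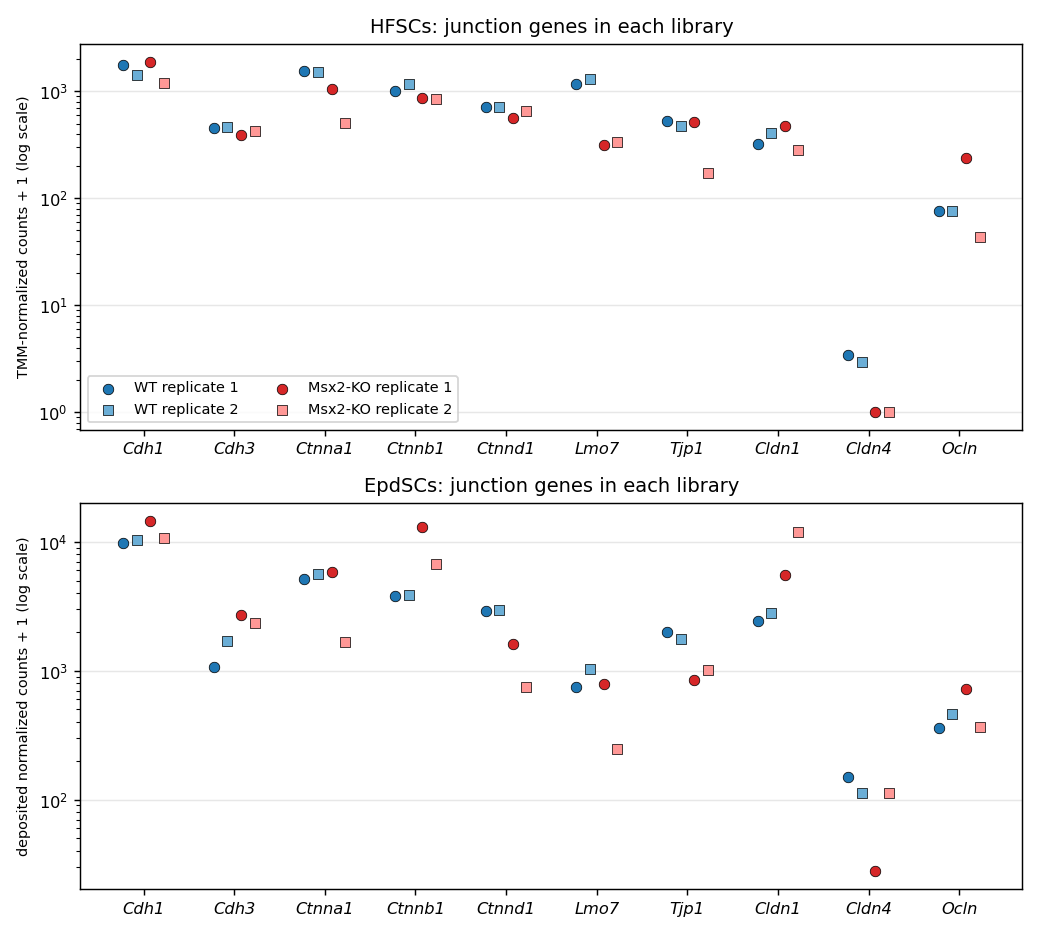
Value of each junction gene in each library on a log axis, as TMM-normalized counts in HFSCs (top) and deposited normalized counts in EpdSCs (bottom), each with 1 added; blue marks WT and red marks libraries labelled Msx2-KO. In HFSCs the Lmo7 points separate widely, at 1174 and 1306 in WT against 316 and 337 in Msx2-KO.

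Cdh1 (chromosome 8, 106603351 to 106670246, GRCm38, plus strand) had 1749 and 1414 normalized counts in WT HFSCs and 1899.95 and 1185 in HFSCs labelled Msx2-KO. The mutant libraries enclosed the WT ones, one above and one below. The log2 fold change was -0.04 (SE 0.33, 95% interval -0.94 to 0.87, adjusted p 0.982 by edgeR), and its sign turned when single libraries were left out, up to 0.26 without Msx2-KO HFSC replicate 2. Cdh3, the P-cadherin gene, which lies on the same chromosome and strand (106510891 to 106557297) and marks basal and hair germ keratinocytes, had 458 and 465 normalized counts in WT against 391 and 422 in Msx2-KO. Both mutant libraries were lower, by little. Its log2 fold change was -0.18 (SE 0.23, interval -0.81 to 0.45, adjusted p 0.831), and the interval holds both a fall and a rise.

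Among the catenins, Ctnna1, which encodes the actin-binding α-catenin (chromosome 18, 35118859 to 35254779, plus strand), had 1534 and 1509 normalized counts in WT HFSCs against 1053 and 502 in Msx2-KO. The WT pair was close together, and both mutant libraries were lower but far apart from each other. The log2 fold change was -0.97 (SE 0.42, interval -2.12 to 0.19, adjusted p 0.368 by edgeR). Without Msx2-KO HFSC replicate 1 it was -1.62 with an adjusted p of 0.0189, in a fit that called 36.6% of all genes. Ctnnb1, the β-catenin gene, which also carries canonical Wnt signals (chromosome 9, 120929216 to 120960507, plus strand), had 999 and 1179 in WT against 861 and 848 in Msx2-KO, with a log2 fold change of -0.35 (SE 0.22, interval -0.95 to 0.26, adjusted p 0.568). Ctnnd1, the p120-catenin gene (chromosome 2, 84600071 to 84650765, minus strand), had 718 and 714 in WT against 562 and 657 in Msx2-KO, with a log2 fold change of -0.23 (SE 0.22, interval -0.84 to 0.38, adjusted p 0.744). All 3 catenin genes were lower in both mutant libraries, and none passed the test. Lrrtm2 lies on the opposite strand within Ctnna1, and Ulk4 overlaps Ctnnb1 on the opposite strand, and their reads cannot be told apart if counting ignored strand.

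Lmo7 (chromosome 14, 101729957 to 101934710, plus strand) encodes a LIM domain protein that links the nectin and cadherin systems of the adherens junction to actin. Its normalized counts were 1174 and 1306 in WT HFSCs and 316 and 337 in HFSCs labelled Msx2-KO, from 1441, 662, 475 and 260 estimated counts. The groups were far apart and each pair was tight, at 1239.6 ± 93.3 in WT and 326 ± 14.9 in Msx2-KO (SD, n = 2). The log2 fold change was -1.93 (SE 0.22, interval -2.53 to -1.32), with an unadjusted p of 0.000818 by edgeR. Its adjusted p of 0.143 by edgeR missed the threshold. The Benjamini-Hochberg step gave this same adjusted p to HFSC genes of unequal unadjusted p, such as Scd1 (4.94e-05) and Arvcf (0.0138). It therefore does not rank them. DESeq2 gave -1.90 with an adjusted p of 0.00057 and limma-trend -1.92 with 0.0327. Without Msx2-KO HFSC replicate 1 the adjusted p was 0.0144 and without replicate 2 it was 0.00574, but those fits called 36.6% and 59.1% of all genes. Without WT HFSC replicate 1 or 2 it was 0.0755 and 0.148, and without mitochondrial and ribosomal RNA genes the log2 fold change was -1.97 with an adjusted p of 0.135. Its rank among coding genes was at percentile 92.8 in WT and 61.5 in Msx2-KO. Within a library, Lmo7 had 0.671 and 0.923 of the value of Cdh1 in WT against 0.166 and 0.284 in Msx2-KO, a ratio chosen after its values were seen. Lmo7 was also among the genes that the study picked on these libraries, so its direction is not independent evidence.

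The 250 bases before the RefSeq start of Lmo7 nearest its gene start are shown because this gene had the largest HFSC difference of the 10. Those of Cldn1 are shown because it had the largest EpdSC rise in value, and those of Cldn4 because its level differed most in rank between the cell types. Another RefSeq start of Lmo7, 110666 bases into the gene, is not shown. All are from GRCm38.p6 as RefSeq gives them and are written 5′ to 3′ on the strand of the gene. Capitals mark a Snail family E-box (CAGGTG or its reverse complement CACCTG), which 17.2% of 32817 mouse promoters of the same length hold. The Grainyhead site AACCGGTT, which reads the same on both strands, was searched too and is in 0.116% of them.
Lmo7 (chr14:101729678-101729927, plus strand): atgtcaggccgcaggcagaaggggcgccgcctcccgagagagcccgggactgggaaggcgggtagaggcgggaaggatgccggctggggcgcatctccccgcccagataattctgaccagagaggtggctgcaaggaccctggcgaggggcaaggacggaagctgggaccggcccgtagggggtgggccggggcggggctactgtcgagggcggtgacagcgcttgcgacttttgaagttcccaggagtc
Cldn1 (chr16:26371840-26372089, minus strand): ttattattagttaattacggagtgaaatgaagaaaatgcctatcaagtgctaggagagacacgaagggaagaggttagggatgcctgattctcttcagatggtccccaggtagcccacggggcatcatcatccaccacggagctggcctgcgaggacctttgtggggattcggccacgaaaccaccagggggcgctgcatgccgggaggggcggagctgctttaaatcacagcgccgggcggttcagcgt
Cldn4 (chr5:134946935-134947184, minus strand): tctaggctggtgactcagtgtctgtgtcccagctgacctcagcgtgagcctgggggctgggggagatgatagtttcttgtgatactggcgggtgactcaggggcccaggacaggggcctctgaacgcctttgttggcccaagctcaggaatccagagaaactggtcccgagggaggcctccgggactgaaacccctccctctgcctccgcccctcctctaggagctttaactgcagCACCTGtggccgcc
Promoters of 7 of the 10 genes were in the RefSeq table, and Cdh1, Cdh3 and Ctnna1 were not matched. The Cldn4 window holds 1 E-box at position -14 from the start, the Lmo7 and Cldn1 windows hold 0, and none of the 3 holds the Grainyhead site. A window of Ocln that is not shown holds 2 E-boxes, at -213 and -68. A match is a description of the letters and not evidence of binding.

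Tjp1 encodes ZO-1, the scaffold that anchors claudins and occludin to actin (chromosome 7, 65296165 to 65527781, minus strand). It had 531 and 471 normalized counts in WT HFSCs against 521 and 171 in Msx2-KO. Only Msx2-KO replicate 2 was low, and the groups overlapped. The log2 fold change was -0.53 (SE 0.59, interval -2.15 to 1.09, adjusted p 0.795 by edgeR). Without Msx2-KO HFSC replicate 1 it was -1.58, and without replicate 2 it was 0.05.

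Cldn1 encodes the claudin that is essential to the epidermal water barrier (chromosome 16, 26356642 to 26371841, minus strand). It had 320.1 and 408 normalized counts in WT HFSCs against 472 and 279.7 in Msx2-KO, with the mutant libraries on both sides of the WT ones. The log2 fold change was 0.05 (SE 0.37, interval -0.97 to 1.07, adjusted p 0.980 by edgeR), and it turned to -0.40 without Msx2-KO HFSC replicate 1. Ocln, the occludin gene (chromosome 13, 100496507 to 100552718, minus strand), had 75.7 and 74.9 in WT against 239 and 42.7 in Msx2-KO. Here too the mutant libraries lay on both sides, and the log2 fold change was 0.91 (SE 0.97, interval -1.75 to 3.56, adjusted p 0.783 by edgeR). It became -0.84 without Msx2-KO replicate 1 and 1.66 without replicate 2. Cldn4, a claudin of differentiated epithelial layers (chromosome 5, 134945119 to 134946934, minus strand), had 3 and 1 counts in WT HFSCs against 0 and 0 in Msx2-KO. It did not pass the filter on low counts, and both groups were at or under 3 counts per library, so no difference was detectable at this depth.

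In EpdSCs, limma called 0 of the 10 junction genes on log2(value + 1), against 9.35% of all 16231 genes. At an unadjusted p under 0.05 the count was also 0, against 35.3% of all genes, and on counts recovered from the deposited values edgeR called 0 of the 10 (0% of all genes) and DESeq2 called 0 (28% of all genes). In 4 genes (Cdh1, Cdh3, Ctnnb1 and Cldn1) the Msx2-KO pair lay wholly above the WT pair, and in 3 (Ctnnd1, Tjp1 and Cldn4) wholly below, beside 27.8% and 44.5% of all genes. The median log2 fold change of the 10 genes was -0.24 and that of all genes was -0.64.

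**Figure D3:**
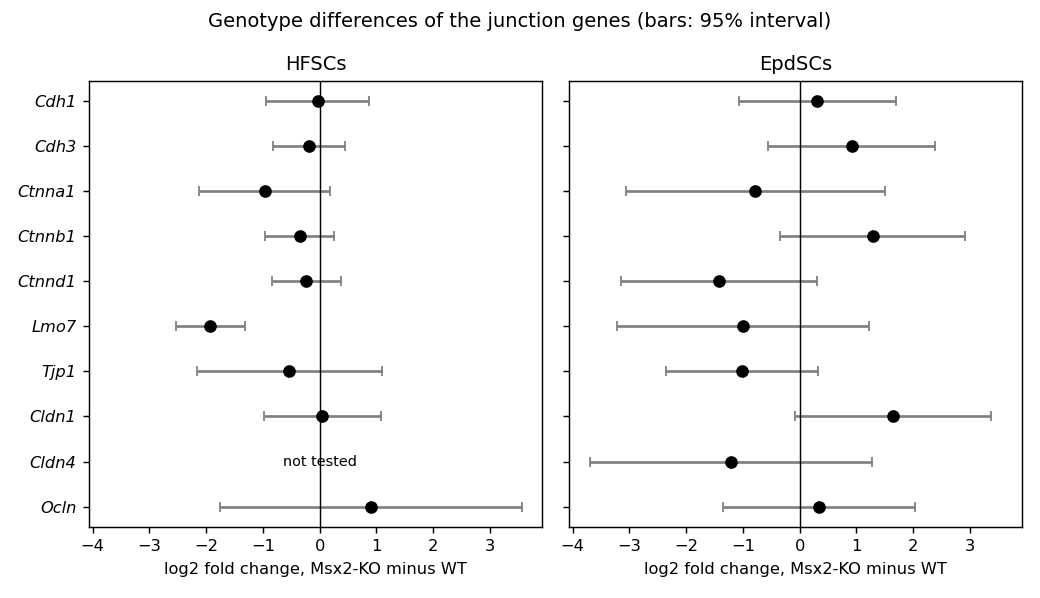
Log2 fold change of each junction gene, Msx2-KO minus WT, in HFSCs (left, edgeR) and EpdSCs (right, limma), with 95% intervals as bars. Lmo7 in HFSCs (-2.53 to -1.32) is the single interval that leaves out 0, and Cldn4 was not tested in HFSCs.

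Cdh1 had 9813 and 10264 deposited normalized counts in WT EpdSCs and 14547 and 10663 in EpdSCs labelled Msx2-KO. Both mutant libraries were above WT, one of them barely. On the log2(value + 1) scale the difference was 0.31 (SE 0.49, interval -1.07 to 1.69, adjusted p 0.656 by limma), and it turned to -0.23 when mitochondrial and ribosomal RNA genes were left out of the library totals. Cdh3 had 1067 and 1685 in WT against 2707 and 2354 in Msx2-KO, with both mutant libraries higher. Its log2 fold change was 0.91 (SE 0.52, interval -0.57 to 2.39, adjusted p 0.271). The ratio of Cdh3 to Cdh1 within a library was 0.109 and 0.164 in WT EpdSCs against 0.186 and 0.221 in Msx2-KO, a difference of 0.067 with an exact two-sided permutation p of 0.333, the smallest that 2 libraries against 2 can give. In HFSCs the same ratio was 0.262 and 0.329 in WT against 0.206 and 0.356 in Msx2-KO, with an exact permutation p of 1.

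The EpdSC catenin genes differed from each other in direction. Ctnnb1 had 3822 and 3860.1 deposited normalized counts in WT against 13079 and 6718 in Msx2-KO, both higher than either WT library, with a log2 fold change of 1.29 (SE 0.58, interval -0.34 to 2.92, adjusted p 0.196 by limma). Ctnnd1 had 2919 and 2948 in WT against 1609.6 and 743 in Msx2-KO, both lower, with a log2 fold change of -1.42 (SE 0.61, interval -3.15 to 0.31, adjusted p 0.186). Ctnna1 had 5163 and 5581 in WT against 5864 and 1659 in Msx2-KO, so that only replicate 2 was low and the groups overlapped, with a log2 fold change of -0.78 (SE 0.80, interval -3.06 to 1.49, adjusted p 0.502). Leaving out Msx2-KO EpdSC replicate 2 gave Ctnnb1 1.77 (adjusted p 0.0167) and Ctnna1 0.13. Leaving out replicate 1 gave Ctnnd1 -1.98 (adjusted p 0.0314) and Ctnna1 -1.69 (adjusted p 0.0352). These fits called 63.9% and 37.6% of all genes. The ratio of Ctnnb1 to Ctnnd1 within a library, chosen after its values were seen, was 1.31 in both WT EpdSC libraries and 8.13 and 9.04 in those labelled Msx2-KO. Since Ctnnb1 lay above WT and Ctnnd1 below it in both mutant libraries, this ratio had to separate. In HFSCs it was 1.39 and 1.65 in WT against 1.53 and 1.29 in Msx2-KO, with overlapping groups.

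**Figure D4:**
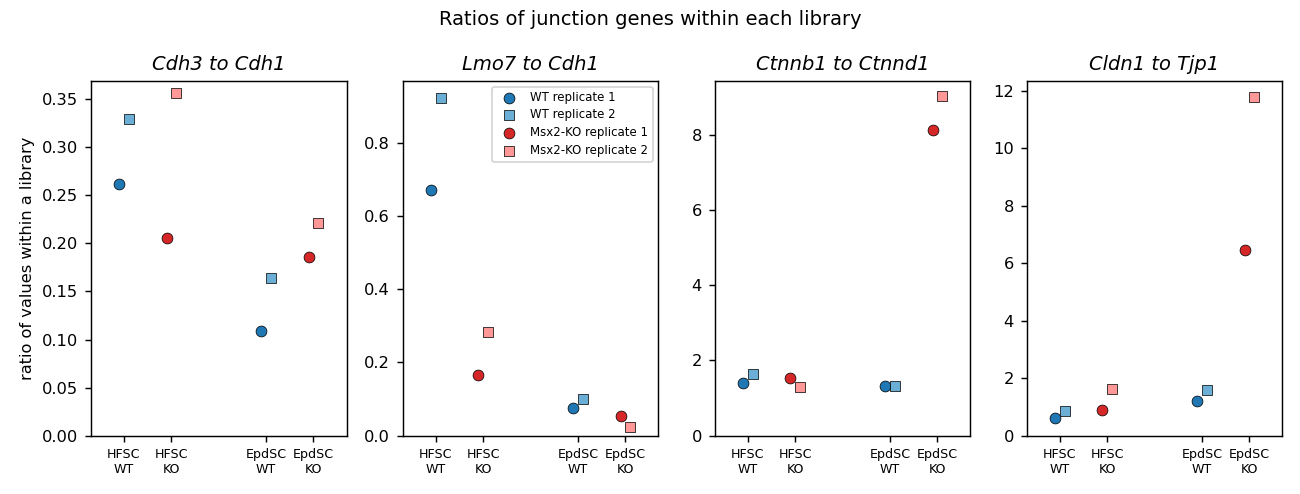
Ratio of the values of a pair of junction genes within each library, for 4 pairs, in HFSCs and EpdSCs; circles mark replicate 1 and squares replicate 2, blue WT and red Msx2-KO. The Ctnnb1 to Ctnnd1 ratio separates in EpdSCs (1.31 against 8.13 and 9.04) and overlaps in HFSCs. The Lmo7 to Cdh1 ratio separates in both. All pairs except Cdh3 to Cdh1 were chosen after their values were seen. The smallest exact permutation p that 2 libraries against 2 can give is 0.333.

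Lmo7 had 748 and 1027 deposited normalized counts in WT EpdSCs against 791 and 244 in Msx2-KO. The groups overlapped, with Msx2-KO replicate 2 the lowest, and the log2 fold change was -0.995 (SE 0.783, interval -3.21 to 1.22, adjusted p 0.392 by limma). Its ratio to Cdh1 was 0.0763 and 0.1001 in WT EpdSCs against 0.0544 and 0.0229 in Msx2-KO, below every HFSC library.

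Among the tight junction genes of EpdSCs, Tjp1 had 2008 and 1745 deposited normalized counts in WT against 852 and 1005 in Msx2-KO. Each mutant library was lower than both WT libraries, with a log2 fold change of -1.02 (SE 0.47, interval -2.35 to 0.32, adjusted p 0.207 by limma). Cldn1 had 2406 and 2778 in WT against 5510.1 and 11835 in Msx2-KO, both higher, with a log2 fold change of 1.64 (SE 0.61, interval -0.09 to 3.38, adjusted p 0.154). The Cldn1 to Tjp1 ratio, chosen after its values were seen, was 1.20 and 1.59 in WT EpdSCs against 6.47 and 11.8 in Msx2-KO. Since Cldn1 lay above WT there and Tjp1 below it, the ratio had to separate. In HFSCs the ratio was 0.603 and 0.866 in WT against 0.907 and 1.64 in Msx2-KO. Cldn4 had 148 and 111.92 in WT against 26.7 and 111.884 in Msx2-KO, so that replicate 2 was below the nearer WT library by a margin far smaller than a single count, and its log2 fold change was -1.21 (SE 0.88, interval -3.70 to 1.27, adjusted p 0.360). Ocln had 359 and 461 in WT against 723 and 363 in Msx2-KO, with overlapping groups and a log2 fold change of 0.33 (SE 0.60, interval -1.36 to 2.02, adjusted p 0.7002). Without Msx2-KO EpdSC replicate 2 the calls were Tjp1 (-1.13, adjusted p 0.0413), Cldn1 (1.09, adjusted p 0.0444) and Cldn4 (-2.23, adjusted p 0.0245), and without replicate 1 the call was Cldn1 (2.19, adjusted p 0.0327), in the fits that called 63.9% and 37.6% of all genes.

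Beyond the 10 genes, 85 other genes of adherens junctions, tight junctions and cell polarity and their transcriptional regulators were followed. In HFSCs edgeR called 0 of the 67 that were tested, 5 were lower and 4 higher at an unadjusted p under 0.05 (12.8% and 5.3% of all genes), and DESeq2 and limma-trend called 3 each (5.78% and 9.76% of all genes). Both mutant libraries lay below WT in 22 of the 67 and above in 17, beside 33.5% and 17.5% of all genes. Among those with higher values, Shroom3, which drives apical constriction, had 44.0 and 53.3 normalized counts in WT HFSCs against 563 and 198 in Msx2-KO (log2 fold change 2.97, adjusted p 0.143 by edgeR). Grhl1, a Grainyhead-like transcription factor of differentiating epidermis, had 74.9 and 73.0 in WT against 350.2 and 423 in Msx2-KO (2.38, adjusted p 0.143). Snai2, which encodes the E-cadherin repressor Slug, had 279 and 193 in WT against 782 and 558 in Msx2-KO (1.5, adjusted p 0.143). The unadjusted p by edgeR was 0.00996 for Shroom3, 0.0018 for Grhl1 and 0.0108 for Snai2, under the same shared adjusted p. Lsr, the tricellular junction protein angulin-1, and Esrp2, an epithelial splicing regulator, had log2 fold changes of 1.43 and 0.85. DESeq2 called Shroom3 and Grhl1, and limma-trend called Grhl1. Each also called Pard6b, a polarity gene under the mean of 100 used for naming. It had 74.9 and 69.0 normalized counts in WT HFSCs against 0 and 0 in Msx2-KO, and is named with its values in view.

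Among the HFSC genes with lower values, Prkci, the polarity kinase aPKC, had 498 and 509 normalized counts in WT against 166 and 189 in Msx2-KO (log2 fold change -1.50, adjusted p 0.143 by edgeR, and called by limma-trend). Arvcf, a p120-catenin relative, had 846 and 1284 in WT against 459.9 and 457 in Msx2-KO (-1.21, adjusted p 0.143). The unadjusted p by edgeR was 0.00398 for Prkci and 0.0138 for Arvcf. Tcf4, an E protein transcription factor, was at -1.15, the actin motor gene Myo6 at -1.12, and Mpdz, a tight junction scaffold, at -1.12. Mpdz rested on Msx2-KO HFSC replicate 2, which had 24.6 normalized counts where the other 3 libraries had 269.8 to 347. Without Msx2-KO replicate 1 or 2, 23 and 26 of these genes were called, in the fits that called 36.6% and 59.1% of all genes.

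In EpdSCs limma called 4 of the 72 tested genes of these lists, 3 lower and 1 higher, against 7.78% and 1.57% of all genes. Esrp1, which controls epithelial splicing of genes such as Ctnnd1 and Fgfr2, rose from 3735 and 3238 deposited normalized counts in WT to 44167 and 25625 in Msx2-KO (log2 fold change 3.27, SE 0.54, adjusted p 0.0492). Patj, a scaffold of the Crumbs polarity complex, fell from 739.8 and 776 to 28.01 and 69.4 (-4.07, SE 0.65, adjusted p 0.0462). Cgnl1, which encodes the junction protein paracingulin, fell from 108 and 124 to 0 and 0.674 (adjusted p 0.0266), and Magi3 fell from 44.4 and 64.5 to 0 and 2.02 (adjusted p 0.0432). Cgnl1 and Magi3 were picked out with their values in view. On recovered counts DESeq2 gave all 4 an adjusted p below the threshold, from 1.32e-05 for Esrp1 to 0.00601 for Magi3, and edgeR called 0 of the 4, with adjusted p from 0.0604 to 0.0953. Without WT EpdSC replicate 1 or 2, limma called 0 of all genes.

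Others with separated groups in EpdSCs did not pass the test. Prkci had 1383 and 1535 deposited normalized counts in WT against 22888 and 5889 in Msx2-KO (log2 fold change 2.99, adjusted p 0.104 by limma), the opposite direction to its HFSC values. Crb3, Vasp and Tes had log2 fold changes of 2.80, 2.62 and 2.54, each with its higher value in Msx2-KO replicate 1. Magi1 (-2.97), Marveld3 (-2.64), Actn4 (-2.21) and Cgn (-2.14), which encode scaffold, membrane and actin-crosslinking proteins of junctions, had lower values in both mutant libraries. The adherens junction genes had 12 of 31 above and 8 below WT, and the tight junction and polarity genes 6 of 27 above and 15 below, beside 27.8% above and 44.5% below over all genes. Without Msx2-KO EpdSC replicate 1 or 2, 24 and 42 of the 72 were called, in the fits that called 37.6% and 63.9% of all genes.

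Across both cell types, 65 of these other genes were tested in each. In 17 the mutant libraries lay on opposite sides of WT in HFSCs and EpdSCs, among them Shroom3, Grhl1, Lsr, Esrp2, Prkci and Tcf4, and in 10 they lay on the same side, among them Snai2, Myo6 and Mpdz. Of all 13151 genes tested in both cell types, 16.5% lay on opposite sides and 21% on the same side. Of the 10 junction genes, Cdh3 and Ctnnb1 were below WT in HFSCs and above it in EpdSCs, and Ctnnd1 was below WT in both. The difference between the cell types was not tested.

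**Figure D5:**
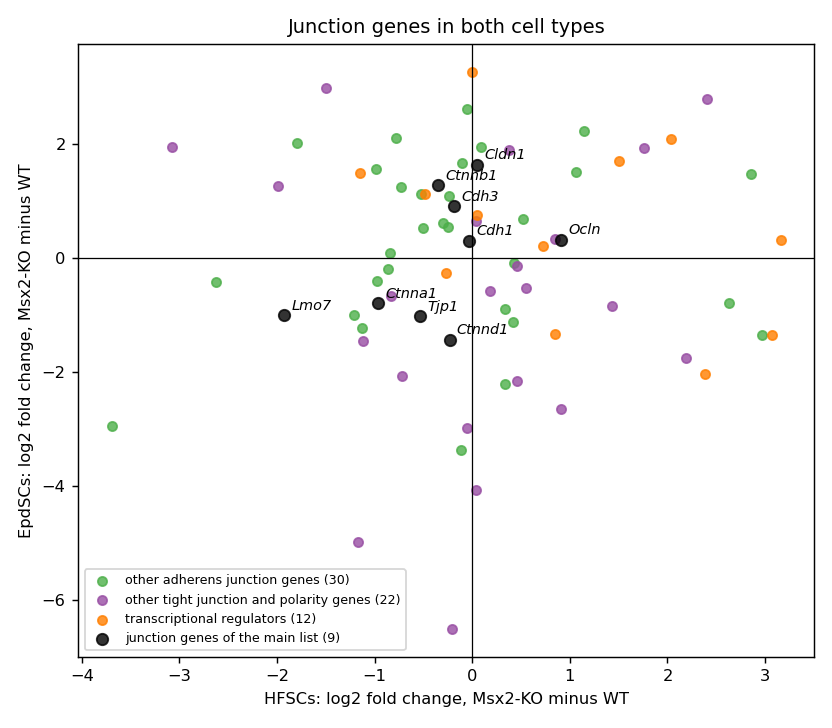
Log2 fold change, Msx2-KO minus WT, in HFSCs (x axis) and EpdSCs (y axis) for 9 junction genes (black, named) and for 30 other adherens junction genes, 22 other tight junction and polarity genes and 12 regulators that had a value above 0 in both groups. Lmo7 lies furthest left of the named genes (-1.93), and Cldn1 lies highest (1.64).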

How the data were processed

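Sorted-cell RNA was made into SMARTer Stranded Total RNA-Seq Kit v3 libraries, aligned by the authors with STAR 2.7.3a in Partek Flow to GRCm38/mm10 and assigned to GENCODE genes. Whether counting used strand is not given in the sources used here. For HFSCs the authors deposited estimated counts (expected counts) without normalization. For EpdSCs they deposited a normalized signal, in which a single count was worth 0.674 to 1.27, and low genes had been removed by a rule not given in the sources used here. The authors also deposited their own comparisons of the genotypes, which were not used.

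HFSC counts were rounded, scaled by TMM to 6101083 counts per library, filtered with filterByExpr and tested with edgeR 4.0.16 on 14422 genes. The EpdSC test was limma 3.58.1 over 16231 genes on log2(value + 1), a scale that understates changes of low genes. Calls needed an adjusted p (Benjamini-Hochberg) under 0.05 and a fold change over 2. Exon lengths and positions came from a GENCODE annotation of GRCm38, and gene starts equal those of the files. Depth is given above, and no interval covers more than the libraries' spread. Fits used R 4.3.3 and DESeq2 1.42.0, with Python 3.11.15 and matplotlib 3.10.9 for figures.

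The junction genes and gene lists were chosen with earlier results of these data known. The genes named were all 10 junction genes, Msx2, sort markers and, from the other lists, those with separated groups, a mean of 100 or more and the 5 highest or 5 lowest fold changes within a cell type. The alternatives were DESeq2, limma-trend, RLE factors, library totals, other filters and pseudocounts, no mitochondrial or ribosomal RNA genes, a replicate block and each library left out. For EpdSCs, edgeR and DESeq2 on counts recovered from the deposited values (73% to 82% whole within 0.01) were added after the data were seen. Marker lists were for HFSC, basal, suprabasal, sebaceous, fibroblast, endothelial and pericyte, immune, melanocyte and cycling cells.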

Additional observations from a re-analysis of the deposited data

Results flagged for a closer look

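Cdh3 and Ctnnb1 were noted because the Msx2-KO pair lay wholly below the WT pair in HFSCs and wholly above it in EpdSCs. Opposite sides in the cell types were common, at 16.5% of all 13151 genes tested in both, so the pattern is not particular to these genes. The log2 fold change of Cdh3 was -0.18 in HFSCs and 0.91 in EpdSCs. That of Ctnnb1 was -0.35 in HFSCs and 1.29 in EpdSCs. None of these 4 values passed the test in its own cell type, the difference between the cell types was not tested, and the HFSC groups also differ in age.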

How the results depend on the processing

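There were 12 other settings in HFSCs and 13 in EpdSCs. The median over all genes shifted under another scaling by -0.85 (library totals in HFSCs), -0.27 (library totals in EpdSCs), -0.53 (no mitochondrial or ribosomal RNA genes in EpdSCs) and 0.16 (edgeR on recovered counts). The count of junction genes called in HFSCs was 0 and became 1 (Lmo7) with DESeq2, 1 with limma-trend and 1 with the replicate block, and 0 to 3 with a library left out. In EpdSCs it was 0 and ranged from 0 to 4 with a library left out. A fit with a group reduced to 1 library assumes that it varies like the other group. Of the other junction genes in HFSCs, 0 were called, against 3 with DESeq2, 3 with limma-trend and 0 to 26 with a library left out. In EpdSCs 4 were called, against 19 with DESeq2 and 0 with edgeR on recovered counts, 2 with library totals, 8 with limma's intensity trend, 2 without mitochondrial or ribosomal RNA genes, 0 with a pseudocount of 0.1, 2 with the replicate block and 0 to 42 with a library left out. Over all EpdSC genes, 1518 were called, against 4362 with DESeq2 and 0 with edgeR on recovered counts. The share of all EpdSC genes called was 8.43% with library totals, 13.1% with the intensity trend and 9% without mitochondrial or ribosomal RNA genes. It was 6.84% with a pseudocount of 0.1 and 7.83% with the replicate block. Over all HFSC genes, 0 were called, against 822 with DESeq2, 1407 with limma-trend, 51 with library totals, 2 with at least 10 counts in every library and 231 with the block.

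The sign turned for Cdh1 in HFSCs with at least 10 counts in every library (0.040) and with a library left out (-0.44 to 0.26), and for HFSC Cldn1 (library totals -0.72, a library left out -0.40 to 0.37), Esrp2 (library totals -0.10), Tjp1 (-1.58 to 0.049) and Ocln (-0.84 to 1.66). In EpdSCs it turned for Cdh1 (-0.23) and Ocln (-0.20) without mitochondrial or ribosomal RNA genes, and with a library left out for Ctnna1 (-1.69 to 0.13) and Ocln (-0.16 to 0.83). The difference of the Cdh3 to Cdh1 ratio in HFSCs was -0.014 and ranged from -0.090 to 0.061 with a library left out. The causes were not tested. Same-numbered libraries did not deviate together (correlation of deviations across genes -0.056 in HFSCs and -0.023 in EpdSCs). The labels do not say whether libraries of the same number shared a preparation, and these correlations cannot decide it. With the block, Lmo7 in HFSCs was at -1.92 (adjusted p 0.0164 by edgeR), and 1.6% of all genes were called.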
